A study of Mus musculus with 8 samples.

Results

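39 genes that gave almost no reads in immortalized mouse myeloid progenitors, and almost none after the normal differentiation signal, gave at least 15 reads in both libraries made after loss of the histone chaperone CAF-1. These switched-on genes were selected on their raw read counts, out of 34199 annotated genes. A gene was taken if it had at most 4 counts summed over the 4 control libraries, at most 10 counts summed over both HOXA9 OFF libraries and at least 15 counts in each CAF-1 OFF library. Histone genes (symbols starting Hist), chemokine genes and their receptors (Ccl, Cxcl, Ccr, Cxcr) and Fbp2 were left out. 41 genes met the counts, and Ccr4 and Fbp2 were the 2 dropped. Because those counts chose the genes, the levels of the 39 are a description and carry no test.

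The cells were immortalized granulocyte-macrophage progenitors (iGMPs) from C57Bl/6 mice with a Lysozyme-GFP reporter, held in self-renewal by HOXA9 joined to an estrogen receptor domain that needs estradiol, and grown as clonal lines. The 4 groups of 2 libraries were t0 (150 ng/ml estradiol, uninduced), CAF-1 OFF (estradiol with 500 µM IPTG for 48 h, which induces a short hairpin against Chaf1b), IPTG control (estradiol with the same IPTG for 48 h) and HOXA9 OFF (no estradiol for 48 h, no IPTG, after which these cells mature towards neutrophils). All groups carry the HOXA9 fusion. The labels do not say which vector the IPTG control cells carry, though the study's methods name a stuffer sequence as its control for IPTG induction. They also do not say what libraries with the same replicate number share. The study mentions independent sub-clones for its RNA-seq without tying them to libraries, so p-values measure the spread between these libraries, which may be clonal or technical.

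CAF-1 places newly made histones H3 and H4 onto DNA behind the replication fork, and Chaf1b encodes its p60 subunit. Without it, copied DNA is packed into nucleosomes more slowly. Genes of other tissues, such as odorant receptors or heart muscle channels, are normally kept off in blood progenitors by closed chromatin, by DNA methylation or simply because no activator is present.

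Total counts on genes ran from 14044284 to 22423837 per library, so 3 counts, the limit that a count of 0 allows, stood for 0.128 to 0.212 CPM (counts scaled by library size). Chaf1b was at 96.8 and 100 CPM in t0, 95.1 and 102 CPM in the IPTG control, 18.7 and 9.72 CPM in CAF-1 OFF and 48.3 and 41.0 CPM in HOXA9 OFF. It fell by 2.79 on the log2 scale between t0 and CAF-1 OFF (SE 0.27, adjusted p = 0.00236, edgeR quasi-likelihood test). All 19 measured genes of a granulocyte-macrophage progenitor list passed the filter on low counts, with a summed level of 15433 to 20304 CPM in t0. 18 of them passed without the CAF-1 OFF libraries and Lyz2 only through them, so passing does not place all 19 in the uninduced cells. IPTG control replicate 1 stood apart in the share of its uniquely aligned reads that lay outside annotated genes, 14.6% against 5.30% to 7.79% in the other 7 libraries. Without that library the same thresholds gave 46 genes, which hold the 39 by construction.

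The promoters of the 6 protein-coding genes with the highest level in their lower CAF-1 OFF replicate that have an entry in the RefSeq promoter table are shown first, because they range widely in CG dinucleotides. Each run holds 250 bases before and 50 bases from the start site on the GRCm38.p6 build, 5′ to 3′ on the gene's strand, with every CG in capitals. Tub lies at chr7:109010630-109010929 on the plus strand, Ryr2 at chr13:12106896-12107195 on the minus strand, Cyp2a5 at chr7:26835089-26835388 on the plus strand, 9930023K05Rik (Plekhs1) at chr19:56461387-56461686 on the plus strand, Gm1110 at chr9:26923032-26923331 on the minus strand and Crybb3 at chr5:113081535-113081834 on the minus strand. Sec14l4, ranked between Ryr2 and Cyp2a5 by its lower replicate, had no entry. By mean level 5730528L13Rik (Msantd3), with a CpG ratio of 0.633, would come before Gm1110.
Tub: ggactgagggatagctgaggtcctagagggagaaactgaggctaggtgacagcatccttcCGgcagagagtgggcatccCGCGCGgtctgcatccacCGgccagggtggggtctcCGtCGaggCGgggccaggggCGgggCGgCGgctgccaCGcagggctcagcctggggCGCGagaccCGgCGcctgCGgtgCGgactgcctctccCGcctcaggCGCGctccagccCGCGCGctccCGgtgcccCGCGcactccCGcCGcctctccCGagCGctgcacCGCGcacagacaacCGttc
Ryr2: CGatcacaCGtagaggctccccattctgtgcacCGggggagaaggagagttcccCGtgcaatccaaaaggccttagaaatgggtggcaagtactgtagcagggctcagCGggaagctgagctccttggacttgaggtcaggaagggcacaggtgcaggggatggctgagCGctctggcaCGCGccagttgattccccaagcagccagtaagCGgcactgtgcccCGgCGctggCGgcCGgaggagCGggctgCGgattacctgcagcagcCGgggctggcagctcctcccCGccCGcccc
Cyp2a5: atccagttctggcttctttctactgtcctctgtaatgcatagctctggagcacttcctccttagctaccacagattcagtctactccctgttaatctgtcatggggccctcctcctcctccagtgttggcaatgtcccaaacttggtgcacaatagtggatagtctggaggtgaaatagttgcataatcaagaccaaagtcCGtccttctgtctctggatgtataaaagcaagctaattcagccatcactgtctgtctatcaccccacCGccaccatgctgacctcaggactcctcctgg
9930023K05Rik: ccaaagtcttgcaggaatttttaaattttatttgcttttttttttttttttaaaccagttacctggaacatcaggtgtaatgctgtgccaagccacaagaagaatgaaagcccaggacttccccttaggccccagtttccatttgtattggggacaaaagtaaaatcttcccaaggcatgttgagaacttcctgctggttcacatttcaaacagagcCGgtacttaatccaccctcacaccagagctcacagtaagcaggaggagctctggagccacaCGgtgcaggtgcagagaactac
Gm1110: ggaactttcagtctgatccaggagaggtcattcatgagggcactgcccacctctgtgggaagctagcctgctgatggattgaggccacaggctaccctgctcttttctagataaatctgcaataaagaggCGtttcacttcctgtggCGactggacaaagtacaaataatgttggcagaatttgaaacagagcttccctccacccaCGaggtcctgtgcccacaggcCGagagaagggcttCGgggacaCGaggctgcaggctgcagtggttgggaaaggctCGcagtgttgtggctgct
Crybb3: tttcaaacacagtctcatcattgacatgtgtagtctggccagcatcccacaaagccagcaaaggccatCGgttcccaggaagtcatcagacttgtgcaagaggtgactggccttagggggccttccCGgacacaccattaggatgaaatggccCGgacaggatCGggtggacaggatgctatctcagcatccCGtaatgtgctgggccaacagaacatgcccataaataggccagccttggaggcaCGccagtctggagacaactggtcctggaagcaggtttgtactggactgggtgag

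The Tub promoter held 34 CG dinucleotides and that of Ryr2 18, against 2 in Cyp2a5, 2 in 9930023K05Rik, 7 in Gm1110 and 6 in Crybb3. The ratio of observed to expected CpG, which corrects for base composition, was 0.835 for Tub and 0.566 for Ryr2, and lay between 0.117 and 0.323 in the other 4. None of the 6 was read for start sites in these cells, so the start used after CAF-1 loss may lie elsewhere.

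Tub gave the most reads. Tub encodes a membrane-tethered, phosphoinositide-binding protein known for neurons and retina, and its mutation causes the obesity of tubby mice. It spans chr7:116154339-116177974 on mm9 (plus strand). Its counts were 1 and 2 in t0, 0 and 0 in the IPTG control, 1 and 0 in HOXA9 OFF, and 1998 and 3920 in CAF-1 OFF. The CAF-1 OFF level was 105 and 205 CPM, and after scaling it stood 3948-fold over the 4 control libraries together (95% exact counting interval 1350 to 19149). These intervals cover counting error only and are wide where a control sum is a few reads. Tub alone held 55.6% and 51.9% of all reads of the 39 genes in the CAF-1 OFF replicates. Scaled to exon length, it was at 22.4 CPM per kb, the 75.6th percentile of all tested genes, so a gene of the nervous system was read at the level of well expressed genes of these cells.

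Receptors and channels came next. Ryr2, the calcium release channel of heart muscle, had 0 and 0 counts in t0, 1 and 0 in the IPTG control, 0 and 6 in HOXA9 OFF and 339 and 775 in CAF-1 OFF. The gene spans 554 kb on chromosome 13, and its ratio to the controls was 2229 (interval 399 to 88135). Gabbr2, a subunit of the GABA-B receptor of neurons, had 0 and 2 counts in t0, 0 in the IPTG control and HOXA9 OFF libraries, and 23 and 40 in CAF-1 OFF. Olfr71, an odorant receptor, was at 0 in all 6 other libraries and had 20 and 32 counts in CAF-1 OFF. Tie1, a receptor tyrosine kinase of endothelium, had 2 and 1 counts in t0, 0 and 0 in the IPTG control, 1 and 0 in HOXA9 OFF and 25 and 19 in CAF-1 OFF. In all 4 genes the lowest CAF-1 OFF library was above every other library, as the rule required. Gpr98 (Adgrv1), the very large adhesion receptor of hair cells and photoreceptors, and Fxyd4, a regulator of the sodium pump, were also members, with HOXA9 OFF sums of 9 and 10.

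Secreted and matrix proteins were a further group. Slit3, a ligand of Robo receptors in axon guidance, had 41 and 42 counts in CAF-1 OFF and 0 in all 6 other libraries, at least 55.4-fold above the controls when 3 counts are allowed over the 4 control libraries. Wnt8b, a Wnt ligand of the embryonic forebrain, had 38 and 39 counts in CAF-1 OFF and also 0 in the other 6 libraries, at least 51.4-fold. Both stood out for near equal counts in the CAF-1 OFF replicates. Col19a1, a collagen associated with basement membranes, had 0 and 1 counts in t0, 1 and 1 in the IPTG control, 0 and 0 in HOXA9 OFF and 31 and 34 in CAF-1 OFF. Crybb3, a structural crystallin of the lens, had 1 and 0 counts in t0, 1 and 0 in the IPTG control, 1 and 3 in HOXA9 OFF and 49 and 89 in CAF-1 OFF. Olfml1, an olfactomedin-like protein, had a read in 1 of the 6 other libraries, IPTG control replicate 1, and 19 and 43 counts in CAF-1 OFF. Matn1 and Clec3a, known from cartilage, and Lrrn3, a neuronal leucine-rich repeat membrane protein, were members with 16 to 18 counts in CAF-1 OFF replicate 1.

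Enzymes and lipid-handling proteins held 3 of the 8 highest members. Sec14l4, of the Sec14-like family of lipid-binding proteins, had 1 and 0 counts in t0, 0 and 0 in the IPTG control, 6 and 0 in HOXA9 OFF and 225 and 939 in CAF-1 OFF, so its CAF-1 OFF replicates differed 4.14-fold in CPM. Cyp2a5, a cytochrome P450 of the liver that hydroxylates coumarin, had 0 counts in all 4 control libraries, 1 and 0 in HOXA9 OFF and 113 and 269 in CAF-1 OFF, at least 255-fold above the controls. 69.0% of the 50-base windows of its transcript occur in no other gene's coding transcript, and the rest are shared with Cyp2a4, so part of its reads could not be placed uniquely. Pla1a, a secreted phospholipase that acts on phosphatidylserine, had 1 and 0 counts in t0, 0 in the IPTG control libraries, 1 and 1 in HOXA9 OFF and 43 and 119 in CAF-1 OFF. St6galnac5, a sialyltransferase that makes gangliosides, had 0 counts in the controls, 0 and 1 in HOXA9 OFF and 22 and 95 in CAF-1 OFF, the widest gap between CAF-1 OFF replicates of any member at 4.29-fold. Ppp1r1c, an inhibitor subunit of protein phosphatase 1, had 1 and 2 counts in t0, 0 in the IPTG control and HOXA9 OFF libraries and 19 and 67 in CAF-1 OFF. Gm600 (Nuggc), a nuclear GTPase of germinal centre B cells, was at 0 in the 6 other libraries and had 35 and 67 counts in CAF-1 OFF. Xpnpep2, a membrane-bound aminopeptidase, was the only member on the X chromosome.

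A few members bind DNA. 5730528L13Rik (Msantd3), which carries a Myb/SANT-like domain, had 1 and 0 counts in t0, 0 in the IPTG control and HOXA9 OFF libraries and 39 and 98 in CAF-1 OFF. Nfatc4, a calcineurin-regulated transcription factor, had 20 and 37 counts in CAF-1 OFF and 0 in the 6 other libraries.

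5 members are known from testis or germ cells, a grouping by textbook knowledge made once the members were known and with no count of such genes among all silent genes. A list of 20 germline genes held none of the 5, and 0 of its 4 tested genes were called higher in CAF-1 OFF than in t0. 1700023E05Rik (Thegl), named for its likeness to a spermatid protein, had 2 and 0 counts in t0, 0 and 2 in the IPTG control, 2 and 6 in HOXA9 OFF and 29 and 91 in CAF-1 OFF. Spink2, a serine protease inhibitor of the acrosome, had 0 in the controls, 0 and 1 in HOXA9 OFF and 18 and 38 in CAF-1 OFF. Dkkl1, a protein of developing spermatids, Tex19.1, which restrains retrotransposons in germ cells, and Gtsf1l, a gametocyte-specific factor-like gene, had 16 to 18 counts in CAF-1 OFF replicate 1. Tex19.1 and Gtsf1l were at 0 in all 6 other libraries.

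The other members were mostly predicted, clone-named or noncoding genes. 9930023K05Rik (Plekhs1), which has a pleckstrin homology domain, had 0 and 1 counts in t0, 0 in the IPTG control libraries, 1 and 4 in HOXA9 OFF and 86 and 129 in CAF-1 OFF. Gm1110, a predicted coding gene, had 1 and 0 counts in t0, 1 and 1 in the IPTG control, 1 and 0 in HOXA9 OFF and 59 and 70 in CAF-1 OFF. The pseudogene Gm13284 had 1 and 0 counts in t0, 0 in the IPTG control libraries, 1 and 0 in HOXA9 OFF and 21 and 41 in CAF-1 OFF. The long intergenic RNA Gm11714 had 1 and 1 counts in t0, 0 in the IPTG control libraries, 1 and 4 in HOXA9 OFF and 20 and 23 in CAF-1 OFF. The other long intergenic RNAs, 3100003L05Rik and Gm16096, had 9 and 0, and 2 and 6, counts in HOXA9 OFF. E030002O03Rik (Olfm5), 1110002E22Rik and Cldn4, the last a tight junction protein of epithelium, were also members.

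**Figure D1:**
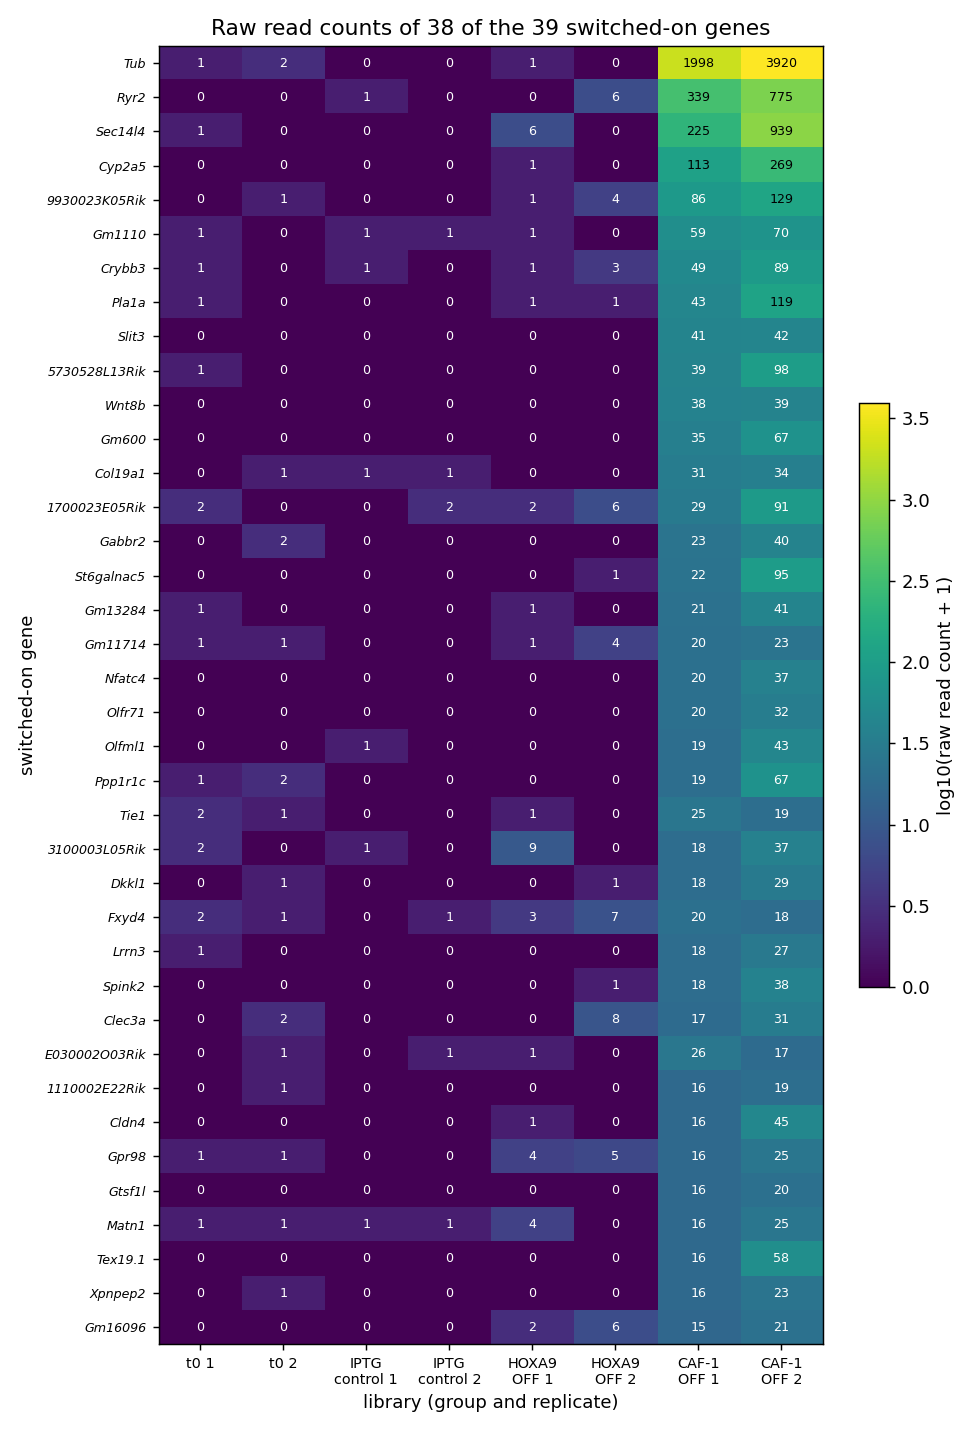
Raw read counts of 38 of the 39 switched-on genes (rows, by their lowest CAF-1 OFF level) in the 8 libraries (columns), with the count in each cell and its log10(count + 1) as colour. No gene shown exceeds 9 counts in a library outside CAF-1 OFF, and each has 15 or more in both CAF-1 OFF libraries, as the rule required; Tub reaches 3920.

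Most members were read at low levels. The median CAF-1 OFF level was 1.62 CPM, 24 of the 39 were under 2 CPM and 5 were at 5 CPM or more. Per kb of exon the median member was at 0.974 CPM, against 7.66 CPM per kb for all tested genes, and 2 members, Tub (22.4) and Sec14l4 (8.74), lay above that median. Summed over the 39, counts were 20 and 19 in t0, 7 and 7 in the IPTG control, 43 and 53 in HOXA9 OFF, and 3591 and 7555 in CAF-1 OFF. 13 members had no read in any of the 4 control libraries, 15 had none in HOXA9 OFF, and 7 had none in any of the 6 other libraries. In bulk RNA a few cells with a high level and many cells with a low level cannot be told apart.

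The replicates of CAF-1 OFF were unequal. 36 of the 39 members were higher in CPM in replicate 2, with a median ratio of replicate 2 to replicate 1 of 1.80 (range 0.649 to 4.29), and 14 were at least 2-fold higher. E030002O03Rik, Tie1 and Fxyd4 were the 3 that were lower. Among the other 1340 genes that were called higher in CAF-1 OFF than in t0, 80.8% were higher in replicate 2, with a median ratio of 1.24, and among all tested genes 50.5% were. Chaf1b was lower in replicate 2, at 9.72 CPM against 18.7 CPM in replicate 1. With 2 libraries no relation between Chaf1b and the members can be computed, and the part of the knockdown level in these ratios was not tested. Without CAF-1 OFF replicate 1, 118 genes met the remaining thresholds, and without replicate 2, 44 did; both sets hold the 39 by construction, since a requirement was dropped.

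**Figure D2:**
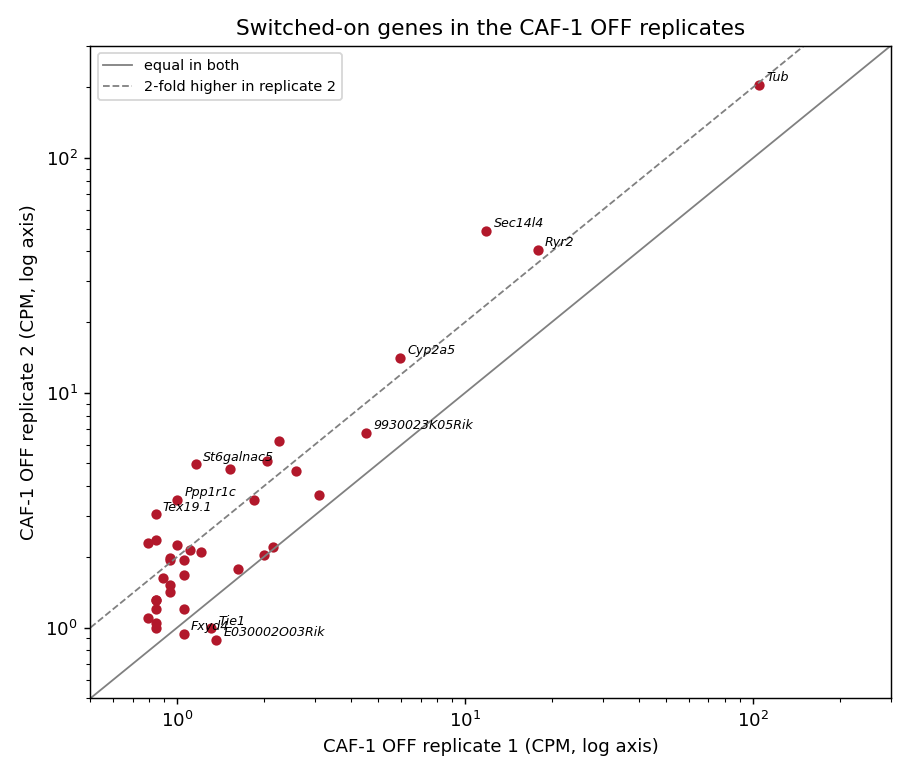
Level of each of the 39 switched-on genes in CAF-1 OFF replicate 1 (x axis) and replicate 2 (y axis), in CPM on log axes, with a solid line for equal levels and a dashed line for 2-fold higher in replicate 2. 36 points lie above the solid line and 14 on or above the dashed line; the names mark genes of high level or of extreme ratio.

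The thresholds cut through a continuum. Of 18625 genes that met both caps on the other libraries, 15254 gave no read after CAF-1 loss and 2418 gave 1 to 3, and the 39 members were 0.209% of these silent genes. Another 870 had 4 to 29 counts over both CAF-1 OFF libraries, and 44 had 30 or more without being members. Gm16096 (15 and 21 counts) and 1110002E22Rik (16 and 19) were among those just inside. 1200009I06Rik (14 and 27), Il17re (14 and 16) and Ldhd (14 and 21) lay just outside the minimum. Car11, Cyp2b13, Epm2a, Il2ra, Ltbp2 and Slc44a3 missed the cap on controls by 1 count, and Gucy2c and Zfp819 missed the cap on HOXA9 OFF by 1 count.

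The cap on HOXA9 OFF removed 20 genes, since 59 met the other thresholds. 16 of those 20 had more counts in CAF-1 OFF than in HOXA9 OFF and 4 had fewer. P2ry6, a nucleotide receptor, was among the 4, with 231 and 548 counts in HOXA9 OFF and 15 and 26 in CAF-1 OFF. H2-Aa, an MHC class II chain of antigen-presenting cells, was among the 16, with 93 and 75 counts in CAF-1 OFF and 3 and 11 in HOXA9 OFF. Using t0 as the only silent group, 87 genes reached 15 counts in both libraries of CAF-1 OFF, 140 in HOXA9 OFF and 0 in the IPTG control. The mirror image of the rule, silent in the controls and in CAF-1 OFF, took 73 genes that were read in HOXA9 OFF. P2ry6 and H2-Aa were named after their values were seen.

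By gene type, 35 of the 39 members were protein-coding, 3 were long intergenic RNAs and 1 was a pseudogene. Of the silent genes, 0.392% of 8921 protein-coding genes and 0.440% of 682 long intergenic RNAs were members, against 0.0251% of 3983 pseudogenes. None of 1969 genes typed as processed transcripts and none of 1371 annotated microRNA genes were members. Large silent families held few or no members, as 0.209% of all 18625 silent genes were members. Of 1240 silent odorant receptor genes 1 was a member (Olfr71). 1213 of them had no read in CAF-1 OFF, next to 15254 of all silent genes. No member came from 492 silent vomeronasal receptors, 100 keratins and keratin-associated proteins or 71 defensins, sets too small to tell none from that share. Of 21 silent claudins and 22 silent collagens, 13 and 11 had no read, and each family held 1 member. MicroRNAs and other short RNAs are poorly captured by this kind of library, so their zeros say little.

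Members were longer than other silent genes. The median gene span was 20.8 kb, against 7.45 kb for silent protein-coding genes, and the median exon length was 2333 bases against 1687. 7 members spanned over 100 kb, the longest being Slit3 at 587 kb. A threshold on raw reads takes long genes more easily than short ones, and the values were not corrected for this.

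The members were spread over 16 chromosomes. Chromosomes 4 and 7 held 6 each, 15.4% of members, and chromosomes 5 and 11 held 4 each. On chromosomes 4 and 7 lie 6.13% and 11.2% of silent protein-coding genes, and 1581 and 1521 of all 18625 silent genes. The members there include the pseudogene Gm13284 on chromosome 4 and the long intergenic RNA 3100003L05Rik on chromosome 7. None lay on chromosomes 10, 15, 17, 18 or Y. They were not grouped along the chromosomes at close range. Only 1 pair lay within 500 kb, Spink2 and 1700023E05Rik on chromosome 5, 144 kb apart. On mm9, Spink2 spans chr5:77634132-77640496 on the minus strand and 1700023E05Rik chr5:77445048-77490554 on the plus strand. 2 more pairs lay within 2000 kb, Olfml1 and Tub on chromosome 7 at 1420 kb, and Gabbr2 and 5730528L13Rik on chromosome 4 at 1548 kb.

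**Figure D3:**
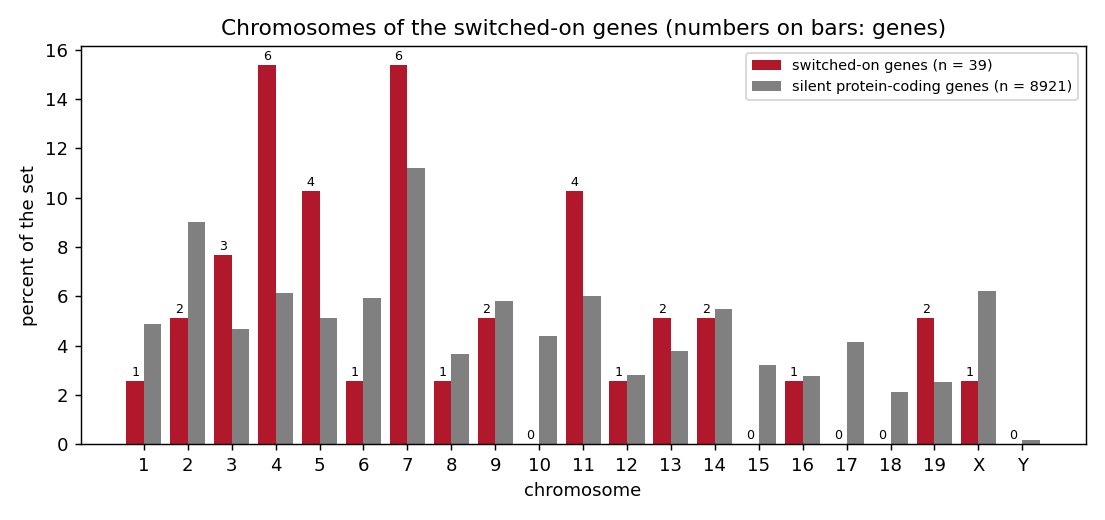
Share of the 39 switched-on genes (red) and of the 8921 silent protein-coding genes (grey) on each chromosome, in percent of each set, with the number of switched-on genes above its bar. Chromosomes 4 and 7 hold 6 switched-on genes each and 5 chromosomes hold none.

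The rule did not use the counts of genes beside the members. Where the span of a neighbour overlaps that of a member, reads of one may have been counted for the other. The nearest tested gene on each side within 100 kb gave 55 neighbours of 36 members. 12 of the 55 (21.8%) were called higher in CAF-1 OFF than in t0 and 1 lower, where 10.5% of all 13080 tested genes were called higher and 3.5% lower (edgeR, adjusted p under 0.05 and at least 1.5-fold). Against the IPTG control 12 were higher and 1 lower, with a background of 9.56%. In HOXA9 OFF against t0, 14 neighbours (25.5%) were higher, next to 25.2% of all tested genes. The median neighbour differed by 0.14 on the log2 scale between CAF-1 OFF and t0, and the median tested gene by 0.01. 5 of the 55 overlapped a member, 3 of them among the 12, and of the 50 that did not overlap 9 (18.0%) were higher than in t0 and 10 (20%) than in the IPTG control. A neighbour that passed the filter on low counts only through CAF-1 OFF was more likely to be called higher, and 5 of the 55 passed in that way, 4 of them among the 12. Of the 50 that passed without the CAF-1 OFF libraries 8 (16.0%) were higher, next to 9.28% of the 12603 genes that passed in that way, a comparison added after the data were seen. Among genes with a mean of at least 50 counts, 7 of 44 neighbours (15.9%) were higher, next to 9.83% of the genes tested there. Among all 369 tested genes within 500 kb, 58 (15.7%) were higher. The count fell to 1 of 55 without t0 replicate 1, to 5 without t0 replicate 2 and to 3 without CAF-1 OFF replicate 2, fits in which the lone library was taken to vary like the other groups and in which 1.01%, 3.93% and 1.83% of all tested genes were called higher. Against the IPTG control it fell to 4 without CAF-1 OFF replicate 2, 4 without IPTG control replicate 1 and 1 without IPTG control replicate 2, where 1.59%, 1.64% and 1.15% of all tested genes were called higher. In HOXA9 OFF it was 8 without t0 replicate 1, 9 without t0 replicate 2, 9 without IPTG control replicate 1, 8 without HOXA9 OFF replicate 1 and 9 without HOXA9 OFF replicate 2. These were 14.5% to 16.7% of the neighbours, where 20.7% to 23.8% of all tested genes were called higher.

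The neighbours with the largest changes were of 2 kinds. Some were near silent themselves, and those that passed the filter only through CAF-1 OFF (Gm13283, 9030425E11Rik and Tex19.2 of those named) are given with their levels and no p. Gm13283 overlaps the span of the pseudogene Gm13284 on the same strand. It was at 0.134 and 0.171 CPM in t0 and 2.95 and 4.03 CPM in CAF-1 OFF. The exons of the pair were not compared, so reads of one gene may have been counted for the other. Since the strand setting of the counting is not known, the same holds for pairs on opposite strands, and the place of Gm16096 among the members depends on it. 9030425E11Rik, which overlaps Gm16096 on the opposite strand, was at 0 and 0.0428 CPM in t0, 0.579 and 0.470 CPM in CAF-1 OFF and 0.141 and 0.552 CPM in the IPTG control, so CAF-1 OFF and the IPTG control overlapped. Tex19.2, the germ cell paralog 27.5 kb from Tex19.1, was at 0.0445 and 0.471 CPM in t0 and 1.84 and 4.39 CPM in CAF-1 OFF, and 97.1% of the 50-base windows of Tex19.1 were unique to it. Pde1a, a calcium-dependent phosphodiesterase 16.0 kb from Ppp1r1c, reached 1.58 and 12.3 CPM after CAF-1 loss and at most 0.705 CPM elsewhere (log2 fold change against t0 3.90, edgeR adjusted p = 0.0300).

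Others were plainly expressed before CAF-1 loss. Tmem8b, 13.0 kb from Olfr71, rose from 6.23 and 6.50 CPM to 32.5 and 32.4 CPM (log2 fold change 2.35, SE 0.24, edgeR adjusted p = 0.00245). Dclre1a, a nuclease of DNA crosslink repair 42.4 kb from 9930023K05Rik, rose from 32.4 and 27.6 CPM to 86.1 and 166 CPM (log2 fold change 2.07, SE 0.29, edgeR adjusted p = 0.00612). Mttp, a lipid transfer protein of liver and gut, 8.44 kb from 1110002E22Rik, rose by 1.40 (SE 0.19, edgeR adjusted p = 0.00568). Hopx, a homeodomain-only protein, lies between Spink2 and 1700023E05Rik. It rose by 1.27 in CAF-1 OFF (SE 0.20, edgeR adjusted p = 0.00798) and by 1.94 in HOXA9 OFF (edgeR adjusted p = 0.00013). Spink2 and 1700023E05Rik had at most 6 counts in a HOXA9 OFF library, but the rule kept members low there. Hopx was named for its place after its values were seen.

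**Figure D4:**
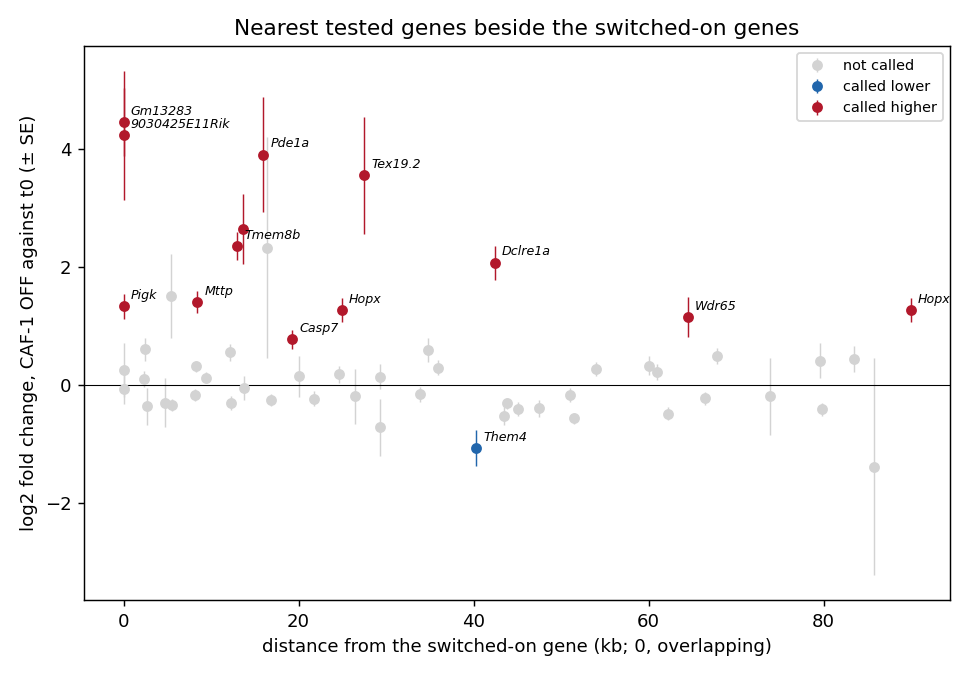
Log2 fold change between CAF-1 OFF and t0 (y axis, ± SE) of the 55 nearest tested neighbours by distance from their switched-on gene in kb (x axis, 0 for overlapping genes), with called genes in colour and most of them named. 12 are called higher and 1 (Them4) lower; Hopx appears at 2 distances because it neighbours 2 members.

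Silent genes beside the members mostly stayed without reads, but less often than silent genes as a whole. Of 161 silent genes within 100 kb, 118 had no read in CAF-1 OFF, next to 15254 of all 18625 silent genes. 18 of the 161 (11.2%) had 4 or more, next to 4.92% of all silent genes that were no member. Ric3, a chaperone of acetylcholine receptors that overlaps Tub on the opposite strand, had 13 counts over both CAF-1 OFF libraries while Tub had 5918. 9330111N05Rik, a long intergenic RNA overlapping Gpr98 on the opposite strand, had the most among the 18, at 22. Olfr70, 4.82 kb from Olfr71 and an odorant receptor too, had 5. The counts of Ric3 and 9330111N05Rik, and of the members they overlap, depend on the strand setting of the counting, which is not known. These 3 were named after their values were seen.

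Relatives of the members by symbol stem gave a similar share. 18 members had 120 such relatives, 73 of them silent and 37 tested. Of the 37, 9 (24.3%) were called higher in CAF-1 OFF than in t0, beside 10.5% of all tested genes, and 0 lower. Stems with over 30 genes, such as that of Olfr71, were left out, as were predicted-gene and Rik stems. Many of the tested relatives were Clec genes, grouped with Clec3a by stem only, with Clec10a, Clec5a and Clec12a among the 9. Olfml2b, a relative of Olfml1, went from 3.07 and 7.53 CPM in t0 to 99.0 and 244 CPM in CAF-1 OFF (log2 fold change 5.01, SE 0.63, edgeR adjusted p = 0.00499) and to 266 and 181 CPM in HOXA9 OFF. Clec10a, a lectin of macrophages, went from 0.223 and 0.171 CPM in t0 to 2.00 and 3.40 CPM (log2 fold change 3.74, SE 0.95, edgeR adjusted p = 0.0316) and was at 3.69 and 18.0 CPM in HOXA9 OFF, so the relatives, unlike the members, were free to be high there. Sec14l2 rose by 2.12 (SE 0.58, edgeR adjusted p = 0.0388), Ryr1, the calcium release channel of skeletal muscle, by 1.58 (SE 0.29, edgeR adjusted p = 0.0132), Clec5a by 1.56, Clec12a by 1.29, St6galnac3 by 1.03 and Cldn15 by 0.99. Without t0 replicate 1, t0 replicate 2, CAF-1 OFF replicate 1 or CAF-1 OFF replicate 2 the count was 0, 3, 4 and 2, where 1.01%, 3.93%, 6.63% and 1.83% of all tested genes were called higher.

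Lists of genes typical of tissues and cell types place the members among the other genes of those tissues. 4 members were on them, Ryr2 (striated muscle), Tub (neuron), Cldn4 (epithelium) and Tie1 (vessel and stroma). Of the other 98 list genes that passed the filter, 33 (33.7%) were called higher in CAF-1 OFF than in t0, and 31 (31.6%) in HOXA9 OFF, beside backgrounds of 10.5% and 25.2%. 13 of the 98 passed the filter only through CAF-1 OFF, which favours a call, and 5 of these were among the 33. Of the other 85, 28 (32.9%) were higher, next to 9.28% of all genes that passed without the CAF-1 OFF libraries, a comparison added after the data were seen. Several lists name blood cells close to these progenitors, and no list had a gene called lower in CAF-1 OFF. The count in CAF-1 OFF was 7 (6.86%) without t0 replicate 1, 15 (14.7%) without t0 replicate 2 and 12 (12.1%) without CAF-1 OFF replicate 2, where 1.01%, 3.93% and 1.83% of all tested genes were called higher. In HOXA9 OFF it was 20 (19.6%) without t0 replicate 2, where 21.4% of all tested genes were.

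Lists of tissues outside blood differed in how many genes were silent. Of the germline list 15 of 20 genes were silent, and of the epithelium list 14 were silent and 0 of 3 tested genes were called in CAF-1 OFF. For liver 15 of 20 were silent and 2 of 3 tested genes rose, Fbp1, an enzyme of gluconeogenesis, by 3.95 (SE 0.26, edgeR adjusted p = 0.000908) and Apoa2, an apolipoprotein, by 2.93 (SE 0.29, edgeR adjusted p = 0.00245). For the neuron list 11 genes were silent and 1 of 4 tested genes rose, Camk2a, by 2.18 (SE 0.46, edgeR adjusted p = 0.0182). For striated muscle 7 of 20 were silent and 3 of 12 tested genes rose, with Tnni1, a slow-twitch troponin, at 2.16, Ryr1 at 1.58 and Tnnt1 at 0.98. For vessel and stroma 10 of 20 were silent and 5 of 9 tested genes rose, among them Thy1, Acta2 and Pecam1, with 1 of the 5, Fbln1, and 3 of the 9 in the test only through CAF-1 OFF, and with 2 of 9 called against the IPTG control. Beside Tub, Ryr2, Tie1 and Cldn4, most silent genes of the same lists had 0 to 3 counts over both CAF-1 OFF libraries. They were 10 of 11 for neuron, 5 of 7 for striated muscle, 8 of 10 for vessel and stroma and 12 of 14 for epithelium. Among all silent genes that were no member 4.92% had 4 or more, so each of these lists had a larger share above 3, on few genes.

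Lists of blood lineages differed among themselves. For megakaryocytes 8 of 13 tested genes rose in CAF-1 OFF and 11 in HOXA9 OFF, with Itga2b, Gfi1b and Itgb3 having the lowest adjusted p in CAF-1 OFF. Gfi1b, a repressor of the megakaryocyte and erythroid lineages, went from 0.757 and 0.385 CPM in t0 to 18.1 and 35.2 CPM. For the erythroid list 6 of 9 rose in CAF-1 OFF and 1 in HOXA9 OFF, with Rhd rising by 1.90 (SE 0.18, edgeR adjusted p = 0.00224) and Epb4.2, a red cell membrane protein, in the test only through CAF-1 OFF, going from 0 counts in both t0 libraries to 2.11 and 1.15 CPM. For mast cells and basophils 2 of 13 rose, Mcpt8 by 2.95 and Cpa3 by 2.14, for lymphocytes 1 of 10, Cd79a, by 2.82, and for granulocyte-macrophage progenitors 5 of 19, with Runx1 and Csf1r among them. The summed level of the megakaryocyte list was 1885 and 1859 CPM in t0, 3685 and 4347 CPM in CAF-1 OFF and 11032 and 9319 CPM in HOXA9 OFF, and that of the erythroid list was 86.3 and 99.7 CPM, 188 and 176 CPM, and 32.6 and 24.1 CPM. Most of the first sum was Thbs1, at 1504 and 1525 CPM in t0, 3025 and 3623 CPM in CAF-1 OFF and 10153 and 8145 CPM in HOXA9 OFF. Car2 made 65.2 and 79.7 CPM of the erythroid sum in t0, 126 and 104 CPM in CAF-1 OFF and 2.28 and 2.83 CPM in HOXA9 OFF. What part other cell types have in the reads of the 39 members was not tested.

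Promoters of the members resembled those of silent genes more than those of expressed genes in CpG content. 30 members had an entry in the RefSeq promoter table (GRCm38.p6), 28 of them protein-coding, and 9 had none, among them Sec14l4, Pla1a, Gm600, St6galnac5, Gm13284, Lrrn3, Clec3a and Gm16096. The median observed over expected CpG of the 28 was 0.323, against 0.240 for 6258 other silent protein-coding genes and 0.764 for 9502 tested ones. 7 of the 28 (25.0%) had a ratio of 0.6 or more, a common mark of CpG islands, against 19.5% of silent and 71.4% of tested genes. The 7 were Tub, Slit3, 5730528L13Rik, Col19a1, 1700023E05Rik, Gabbr2 and Dkkl1. Slit3 (41 CG dinucleotides) and Gabbr2 (46) had more than Tub, at far lower levels of RNA, while Xpnpep2 had none.

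The sequence GGAAGT, the core of sites for the ETS factors that act widely in myeloid cells, stood on either strand in 9 of the 28 promoters (32.1%), against 19.4% of the silent, 30.1% of the tested and 25.1% of all 17486 protein-coding promoters. It was in Cyp2a5, 9930023K05Rik, Gm1110 and Crybb3 of the 6 shown above, and not in those of Tub and Ryr2. The longer ETS form CCGGAAGT, which contains the core, was in 0 of 28, in 0.959% of silent, 8.79% of tested and 5.29% of all promoters. The GATA-class motif AGATAA was in 4 of 28 (14.3%, against 14.8% of silent, 6.48% of tested and 9.96% of all), the AP-1 motif TGANTCA in 3 (10.7%, against 10.1%, 5.25% and 7.09%) and the C/EBP motif TTGCNNCAA in 1 (3.57%, against 2.19%, 1.70% and 1.87%). The CRE TGACGTCA and the E-box CACGTG were in 0 of 28, and in 1.10% and 5.43% of silent, 3.36% and 10.2% of tested and 2.34% and 7.90% of all promoters. A match to these letters is no evidence of binding, and with 28 promoters such shares are coarse.

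**Figure D5:**
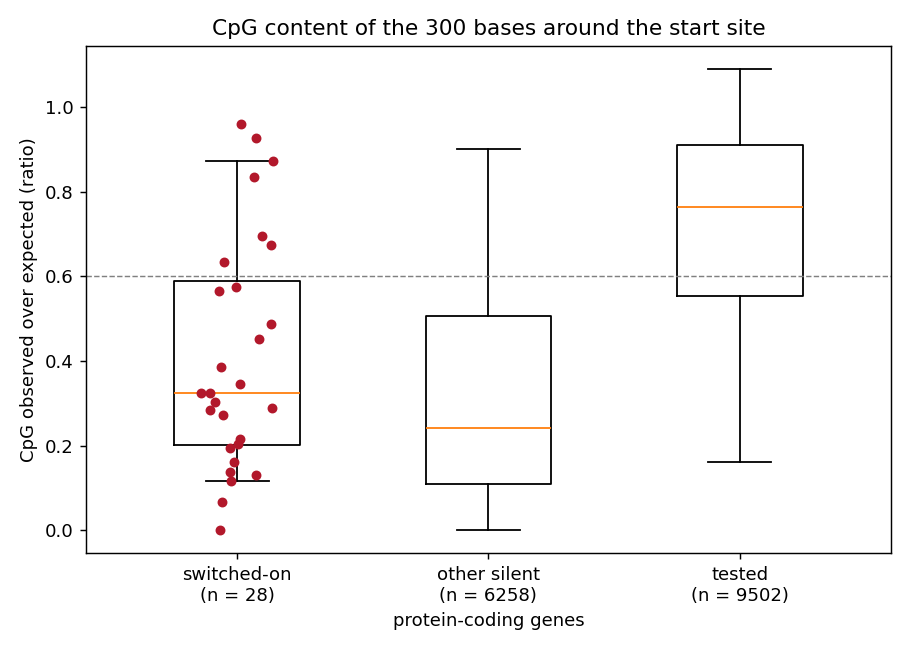
Observed over expected CpG ratio in the promoter window of protein-coding genes: 28 switched-on genes (each a red point), 6258 other silent genes and 9502 tested genes. Boxes show the quartiles with the median as a line, whiskers the 5th and 95th percentiles, and the dashed line the ratio 0.6; the medians are 0.323, 0.240 and 0.764.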

How the data were processed

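RNA was measured in 8 libraries of iGMPs, 2 per group. The authors aligned reads to mouse mm9 with STAR and counted them per gene with HTSeq; the deposited values are raw counts per gene, with reads aligned to several places not counted. The strand setting and the gene annotation are not given in the sources used here. The summary lines for reads given to no gene were left out of totals and tests. The 39 genes were taken by thresholds on raw counts as given in the report, and the genes, the 11 tissue lists (from textbook knowledge) and the tests were chosen with earlier results of these data known.

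Genes were fitted with edgeR (4.0.16, quasi-likelihood test, TMM scaling, filterByExpr, R 4.3.3) over all 4 groups, which share 1 estimate of the spread. A call needed a Benjamini-Hochberg adjusted p under 0.05 over all 13080 tested genes and a change of at least 1.5-fold. The fit was tested on simulated counts. CPM used TMM-scaled library totals. Gene spans and types came from GENCODE vM1 on NCBIM37, which is mm9. Tables of GRCm38.p6 were used for promoters and newer symbols only. Named genes were the 24 members with the highest lower CAF-1 OFF level, members within 500 kb of another, the 8 neighbours and relatives with the largest called changes, and up to 3 called genes per tissue list; a relative is a gene with the same symbol stem followed by a number. Alternatives were other scalings, filters, DESeq2 (1.42.0), other thresholds, a replicate block and leaving out each library. Values of some genes that the rules would name are not reported here.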

Additional observations from a re-analysis of the deposited data

How the results depend on the processing

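The number of switched-on genes followed its thresholds. It was 13 with a control cap of 0 and 62 with a cap of 10, 15 with a HOXA9 OFF cap of 0 and 59 without that cap, 75 with a CAF-1 OFF minimum of 10 and 13 with a minimum of 30. On counts scaled to the smallest total it was 28, of which 20 were among the 39. Leaving out 1 library with the thresholds kept, which can only add genes, gave 44 to 118 genes. The neighbours called higher in CAF-1 OFF than in t0 numbered 7 with a mean of at least 50 counts, 6 at an adjusted p under 0.01 and 2-fold, 58 among all tested genes within 500 kb, and 1 to 12 when 1 library was left out. Against the IPTG control they numbered 4 at the strict thresholds, 58 within 500 kb and 1 to 12 without 1 library. In HOXA9 OFF against t0 they numbered 9 with DESeq2, 6 at the strict thresholds, 87 within 500 kb and 8 to 12 without 1 library. The relatives called higher numbered 2 at the strict thresholds and 0 to 9 without 1 library. The tissue list genes called higher numbered 12 in CAF-1 OFF and 19 in HOXA9 OFF at the strict thresholds, and 7 to 40 and 20 to 32 without 1 library. At the strict thresholds 2.61% of all tested genes were higher in CAF-1 OFF than in t0, 2.03% than in the IPTG control and 15.8% in HOXA9 OFF, beside 10.9%, 7.27% and 10.9% of neighbours, 5.41% of relatives and, for the tissue lists, 12.2% in CAF-1 OFF and 19.4% in HOXA9 OFF. Among genes that pass the filter without the CAF-1 OFF libraries, an alternative added after the data were seen, 8 neighbours and 28 tissue list genes were higher in CAF-1 OFF than in t0. The cause of these shifts was not tested. Chaf1b fell by 2.40 to 3.36 on the log2 scale without 1 library and was called in each of its alternatives.

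Samples with the same replicate number did not all deviate together. The correlation of their deviations was -0.04 between t0 and CAF-1 OFF, -0.02 between CAF-1 OFF and the IPTG control, 0.08 between CAF-1 OFF and HOXA9 OFF, 0.48 between t0 and the IPTG control, 0.30 between t0 and HOXA9 OFF and 0.32 between the IPTG control and HOXA9 OFF. Since 3 of the 6 were not above 0.1, the numbers were not taken as pairs. With a replicate block 13 neighbours were higher in CAF-1 OFF than in t0, 12 than in the IPTG control and 13 in HOXA9 OFF, 9 relatives were higher, the tissue list counts were 40 and 31, and Chaf1b fell by 2.83.

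Members rest on few reads. 24 of the 39 were under 2 CPM, and the limits on their folds are set by 0 to 4 control reads.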
